A study of Rattus norvegicus with 6 samples.

Results

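The cluster of miR-221 and miR-222 was followed in small RNA from vesicles that rat dedifferentiated fat (DFAT) cells shed into their medium. DFAT cells are fibroblast-like cells obtained when mature fat cells in ceiling culture attach, lose their lipid and regain the capacity to form several tissues. The members were taken by name, as each listed mature miRNA with the stem miR-221 or miR-222, either arm, and 3 of the 417 mature sequences of the table met this rule: rno-miR-221-3p, rno-miR-221-5p and rno-miR-222-3p, written below without the species prefix. The opposite arm of miR-222, miR-222-5p, was not listed and so was not analysed here. Vesicles came from DFAT cells of Sprague-Dawley rats at 0 d of osteogenic induction medium (n = 3) or after 14 d in that medium (n = 3), and no other agent or genotype is named for either group. The comparison asks how osteogenic conditioning alters the miRNA content of the vesicles. The series' design text gives ultracentrifugation for vesicles of the induced cells. Separate cultures or animals are not stated in the labels, and every p-value below therefore rests on a spread between samples that could be technical.

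miR-221 and miR-222 are processed from a pair of neighbouring hairpins that are transcribed together. Their 3p strands share a seed, the stretch that pairs with target mRNAs, and both are known to repress the cell-cycle inhibitors p27 (Cdkn1b) and p57 (Cdkn1c) and the receptor Kit. They are abundant in vascular smooth muscle and many proliferating cells, and in cell culture both have been described as restraining fat cell and bone cell formation. A vesicle level depends on what the cell makes and on what it exports, and in such bulk libraries fewer vesicles carrying a miRNA and fewer copies per vesicle cannot be told apart.

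The mature sequences are printed 5′ to 3′ with the seed (bases 2 to 8) in capitals, because the seed is what the 3p members share and the 5p arm lacks. They are as deposited and match RefSeq entries of the rat build GRCr8 letter for letter.
miR-221-3p: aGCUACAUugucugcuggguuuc
miR-222-3p: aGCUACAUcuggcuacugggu
miR-221-5p: aCCUGGCAuacaauguagauuuc
The 3p members are identical over their first 8 bases and at 11 of the 21 positions that both have, counted from the 5′ end. A further run of 6 bases is common to both, starting at base 15 of miR-221-3p and base 16 of miR-222-3p. Tags of the 2 sequences therefore differ from base 9 on. Within the table the seed GCUACAU occurred in these 2 sequences and in no other, and the same held among the mature rat miRNAs of the RefSeq table. The matching 7-base target site would read AUGUAGC. miR-221-3p has 23 bases and a GC content of 47.8%, close to the median of 47.6% over all tested sequences, and miR-222-3p has 21 bases and 52.4%.

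The RefSeq hairpins are shown with the counted arms in capitals, to place each product in its precursor.
Mir222: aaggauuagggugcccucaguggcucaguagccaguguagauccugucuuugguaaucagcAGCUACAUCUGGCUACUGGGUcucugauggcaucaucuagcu
Mir221: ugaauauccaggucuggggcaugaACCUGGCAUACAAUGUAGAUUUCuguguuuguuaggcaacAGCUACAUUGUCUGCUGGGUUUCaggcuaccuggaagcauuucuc
In GRCr8 the Mir222 hairpin lies on the plus strand at chrX:6022621-6022723 and the Mir221 hairpin at chrX:6023182-6023290, with 458 bases and no annotated gene between them. Both fall inside the annotated spans of 2 long non-coding RNA genes. These positions belong to the matched reference sequences and not to rn6, the build named in the submitters' processing notes.

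The 0 d libraries held 120766 to 164424 counts and the 14 d libraries 58730 to 73236, so a low miRNA is measured less precisely at 14 d. Trimmed mean of M-values (TMM) factors, which scale libraries for differences in composition, ranged from 1.34 to 1.38 at 0 d and were 0.923, 0.471 and 0.922 in 14 d replicates 1, 2 and 3. The stromal miRNA miR-21-5p took 29.4% to 42.4% of counts at 0 d and 59.7% to 68.7% at 14 d, and this enters every share given here. Of 5 stromal marker miRNAs, miR-21-5p among them, all were listed, and they summed to 29.8% to 43.0% at 0 d and 60.4% to 69.9% at 14 d. Nearly all of that sum was miR-21-5p. Among the others miR-143-3p, miR-145-5p and miR-214-3p were called higher at 14 d with TMM factors. The sequence listed as miR-199a-3p was not called (log2 fold change -0.29), with a total of 1439 counts at 0 d and 304 at 14 d. A predicted miRNA of the table has the same sequence without its last base and was more abundant. That shorter sequence was called higher at 14 d (1.52, edgeR adjusted p = 0.0141). Its mean TMM-scaled CPM was 17240 at 0 d and 49306 at 14 d, beside 2405 and 1958 for the longer one. The stromal sums leave the shorter sequence out. Of 4 leukocyte and platelet markers miR-142-5p and miR-150-5p were listed, at 0.00669% of counts or less in each 0 d library and at 0 at 14 d. Red cell markers (4 of 4 listed) summed to 0.174% to 0.471% of counts at 0 d and 0.00491% to 0.0153% at 14 d. The serum and liver markers miR-122-5p and miR-192-5p summed to 2.85% to 10.9% at 0 d and 0.434% to 0.610% at 14 d. The endothelial pair miR-126a-3p and miR-126a-5p summed to 0.138% to 0.220% at 0 d and 0.0205% to 0.0409% at 14 d. Muscle markers (2 of 3 listed) summed to 0.243% to 0.298% at 0 d and 0.0150% to 0.0622% at 14 d, and epithelial markers (2 of 4 listed) to 0.0103% or less in every library. The muscle sum hides opposite directions, since miR-206-3p went from a total of 1151 counts at 0 d to 10 at 14 d (called lower), while miR-1-3p went from 0 to 66 (called higher). The part of these sources in the results below was not tested.

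miR-221-3p, the more abundant product of the cluster, was higher at 14 d in each library, while its neighbour miR-222-3p was not. At 0 d miR-221-3p had 403, 440 and 354 counts, and at 14 d it had 594, 2470 and 793. Its share was 0.265%, 0.268% and 0.293% at 0 d, which is tight, and 0.972%, 3.37% and 1.35% at 14 d, where replicate 2 stood highest. The groups did not overlap, as was true of 78.2% of all tested sequences on the TMM scale, and the counting interval of each 14 d library (95%, Wilson; the lowest starts at 0.897%) lay above those of the 0 d libraries (up to 0.325%). The intervals cover counting error only. In 14 d replicates 1, 3 and 2 they did not meet each other either (0.897% to 1.05%, 1.26% to 1.45%, 3.24% to 3.51%). Within the libraries miR-221-3p was the 35th, 29th and 29th most abundant sequence at 0 d and the 14th, 5th and 9th at 14 d. The mean share went from 0.275% ± 0.0157 to 1.9% ± 1.29 (SD, n = 3 per group), a ratio of 6.9, with an exact 2-sided permutation p of 0.1, the smallest that 3 against 3 samples allow.

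**Figure D1:**
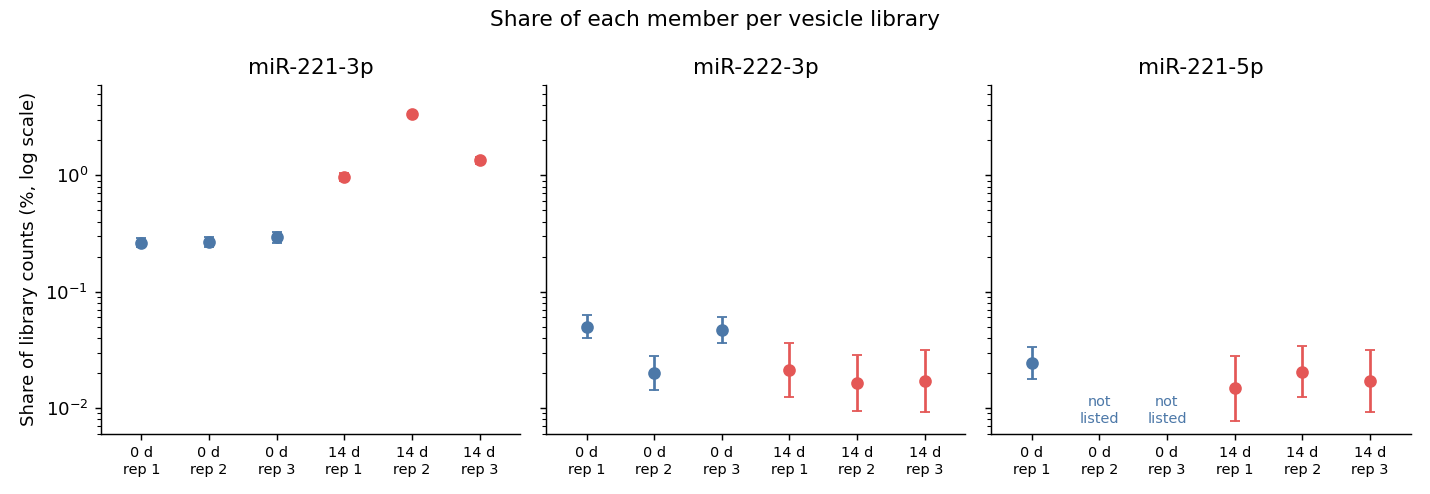
Share of library counts (%, log scale) of miR-221-3p, miR-222-3p and miR-221-5p in each 0 d (blue) and 14 d (red) vesicle library, with 95% Wilson counting intervals as bars. miR-221-3p lies between 0.265% and 0.293% at 0 d and between 0.972% and 3.37% at 14 d, whereas the miR-222-3p points of the groups overlap.

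In the edgeR quasi-likelihood fit over all 119 sequences that passed the low-count filter, miR-221-3p rose by 3.99 ± 0.80 on the log2 scale (SE, n = 3 per group; 95% interval 2.14 to 5.84; Benjamini-Hochberg adjusted p = 0.00628). This was the 12th largest rise of the 119. Without 14 d replicate 2, the library with the highest share and the lowest TMM factor, the value was 2.64 and the adjusted p 0.000948. It was the 1 member called of 3 tested. Calls were frequent in this comparison: 54.6% of tested sequences were called, 26.1% as higher at 14 d (31 higher and 34 lower). With total-count scaling there were 18 higher and 46 lower calls, the median log2 fold change moving by -0.87. With the authors' normalized values and limma there were 21 and 40, with a move of -0.75. miR-221-3p was called as higher under both, at 2.79 and 2.71.

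At 0 d miR-222-3p had 76, 33 and 57 counts, and at 14 d it had 13, 12 and 10. Its share was 0.0499%, 0.0201% and 0.0472% at 0 d and 0.0213%, 0.0164% and 0.0170% at 14 d. The groups overlapped, because 0 d replicate 2 fell below 14 d replicate 1, and the share means of 0.0391% ± 0.0165 and 0.0182% ± 0.00265 (SD, n = 3 each) differed with an exact permutation p of 0.2. On the TMM scale, which allows for the larger share of miR-21-5p and other risen miRNAs at 14 d, its log2 fold change was -0.19 ± 0.68 (SE, n = 3 per group; edgeR adjusted p = 0.824). The 95% interval of that change, -1.76 to 1.39, ended below the interval of miR-221-3p. The sign of the miR-222-3p value was not fixed: it was -1.09 with total counts and -0.86 with the authors' normalized values, but 0.47 after all libraries had been thinned to 58730 counts and 0.042 without 0 d replicate 1 and 0.037 without 14 d replicate 3. It passed the threshold in none of the 17 alternatives that tested it.

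**Figure D2:**
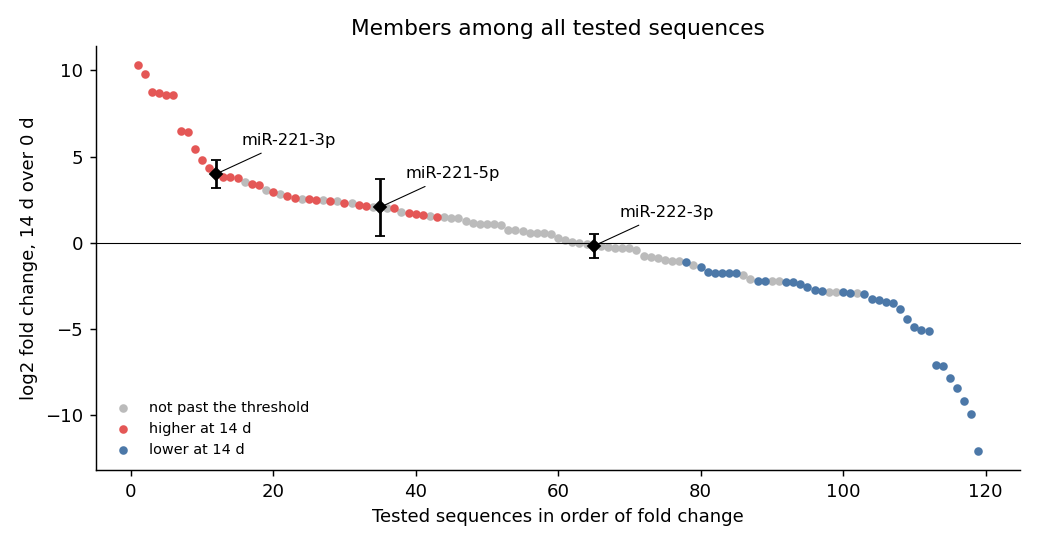
log2 fold change (14 d over 0 d) of the 119 tested sequences in descending order, coloured by edgeR call, with the 3 members as black diamonds and their SE as bars; values of sequences at 0 in a group depend on the prior count of the fit. miR-221-3p stands 12th at 3.99, miR-221-5p 35th at 2.06 and miR-222-3p 65th at -0.19.

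Because both 3p members were counted in the same libraries, their ratio needs no scaling. For every 100 miR-221-3p counts there were 18.9, 7.50 and 16.1 miR-222-3p counts in the 0 d libraries. In the 14 d libraries there were 2.19, 0.486 and 1.26. Each 14 d ratio lay below each 0 d ratio, and the exact binomial (Clopper-Pearson) 95% counting intervals did not meet: the highest 14 d interval ended at 3.77 and the lowest 0 d interval began at 5.10. These intervals cover counting error only, and some also failed to meet within a group. At 0 d that of replicate 2 ended at 10.69, while those of replicates 1 and 3 began at 14.56 and 11.95. At 14 d that of replicate 2 ended at 0.850, while that of replicate 1 began at 1.16. Summed over libraries, 166 counts of miR-222-3p stood beside 1197 of miR-221-3p at 0 d, and 35 beside 3857 at 14 d, which is 13.9 and 0.907 per 100. The mean log2 ratio of miR-222-3p to miR-221-3p was -2.93 ± 0.71 before induction and -6.50 ± 1.10 after 14 d (SD, n = 3 per group), a difference of -3.58 (exact permutation p = 0.1, the smallest possible). Without 14 d replicate 2 the difference was -2.99, and without 0 d replicate 2, the 0 d library with the lowest ratio, it was -3.98. The summed share of both, that is of all tags with their seed, was 0.314% ± 0.0263 before induction and 1.92% ± 1.29 after 14 d (SD, n = 3 per group; exact permutation p = 0.1), and the 14 d mean was raised by replicate 2 at 3.39%.

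**Figure D3:**
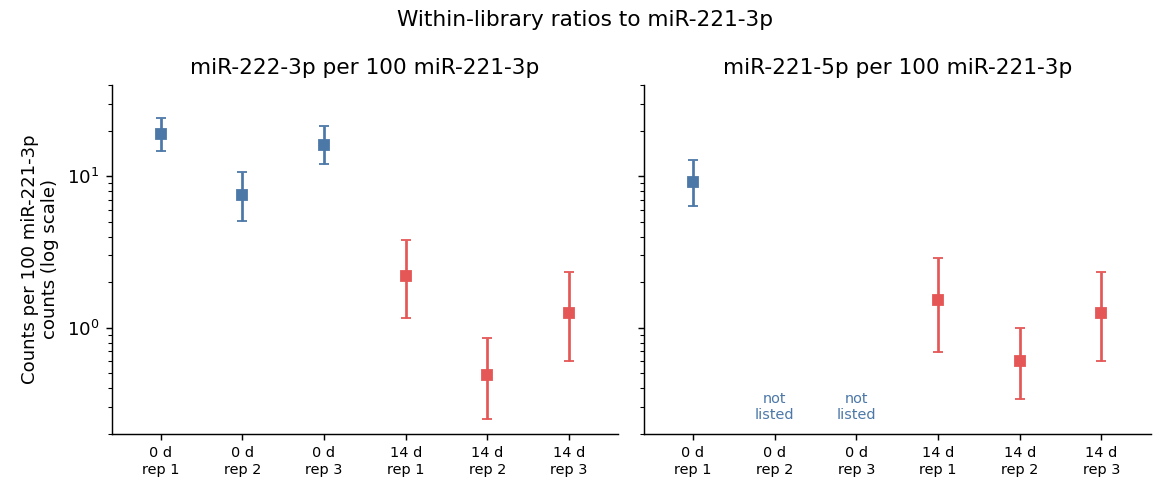
Counts of miR-222-3p (left) and miR-221-5p (right) per 100 counts of miR-221-3p in the same library (log scale), with 95% Clopper-Pearson counting intervals as bars; 0 d in blue, 14 d in red. The miR-222-3p ratio lies between 7.50 and 18.9 at 0 d and between 0.486 and 2.19 at 14 d.

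miR-221-5p, the other arm of the miR-221 hairpin and usually the less abundant strand, was near the limit of these libraries. It had 37 counts in 0 d replicate 1 and was not listed in 0 d replicates 2 and 3, and it had 9, 15 and 10 counts at 14 d. The smallest count listed in any library was 2, so a blank does not separate 0 from a single tag. Its log2 fold change was 2.06 ± 1.66 (SE, n = 3 per group; edgeR adjusted p = 0.310), and the groups overlapped. Without 0 d replicate 1 all 0 d counts were blank, and the fitted value was called at 7.63 (edgeR adjusted p = 0.00667), which depends on the prior count of the fit and is no measured fold. For every 100 miR-221-3p counts there were 9.18 of miR-221-5p in 0 d replicate 1 and 1.52, 0.607 and 1.26 in the 14 d libraries. The arm ratio at 0 d therefore rests on 1 library. In every library miR-221-3p was the highest of the 3. At 14 d miR-222-3p and miR-221-5p could not be told apart, with 13 and 9, 12 and 15, and 10 and 10 counts in the same libraries.

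Ratios to 5 other miRNAs of the same library show how the change of each 3p member reads against partners fixed by name. The partners were the dominant stromal miR-21-5p, the growth-restraining let-7a-5p, and miR-16-5p, miR-423-5p and miR-320-3p, which are often used as reference miRNAs in vesicle work. The partners did not stay level themselves. In the edgeR fit with TMM factors the log2 fold change was 2.50 for miR-16-5p (adjusted p = 0.0259), 1.73 for miR-21-5p (adjusted p = 0.0142), -2.55 for let-7a-5p (adjusted p = 0.0067) and -1.41 for miR-320-3p (adjusted p = 0.0266), all 4 called, and -0.30 for miR-423-5p, not called. The miR-16-5p call ended without 14 d replicate 2 (1.42) or 0 d replicate 3 (2.41), and that of miR-320-3p ended when 0 d replicate 1 (-1.50), 0 d replicate 2 (-1.05) or 14 d replicate 3 (-1.38) was left out. Total counts ended the calls of miR-16-5p (1.37) and miR-21-5p (0.79). Each ratio therefore holds the change of its partner as well as that of the member. Against all 5, miR-221-3p was higher at 14 d with no overlap between groups. Such separation is common here, since the groups did not overlap for 78.2% of all tested sequences on the TMM scale. For ratios to these partners the share over all sequences was not computed, for either member. The log2 difference was smallest against miR-16-5p, where the mean ratio went from 3.39 ± 0.31 to 4.74 ± 0.25 (SD, n = 3 each; a difference of 1.35). It was 1.77 against miR-21-5p, 3.78 against miR-423-5p, 4.90 against miR-320-3p and 6.23 against let-7a-5p. For each the exact permutation p was 0.1 (0.125 after adjustment over the 15 shares and ratios compared).

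The same partners gave miR-222-3p no single direction, and the sign of each difference was opposite to that of the partner's own change. Its log2 ratio was lower at 14 d against miR-16-5p by a difference of -2.23 and against miR-21-5p by -1.81, and higher against let-7a-5p by 2.66 and miR-320-3p by 1.33, each with groups that did not overlap (exact permutation p = 0.1, adjusted 0.125). Against miR-423-5p the groups overlapped, and the mean ratio was -3.49 ± 0.86 before induction and -3.29 ± 0.72 after 14 d (SD, n = 3 per group; a difference of 0.20, exact permutation p = 0.9).

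**Figure D4:**
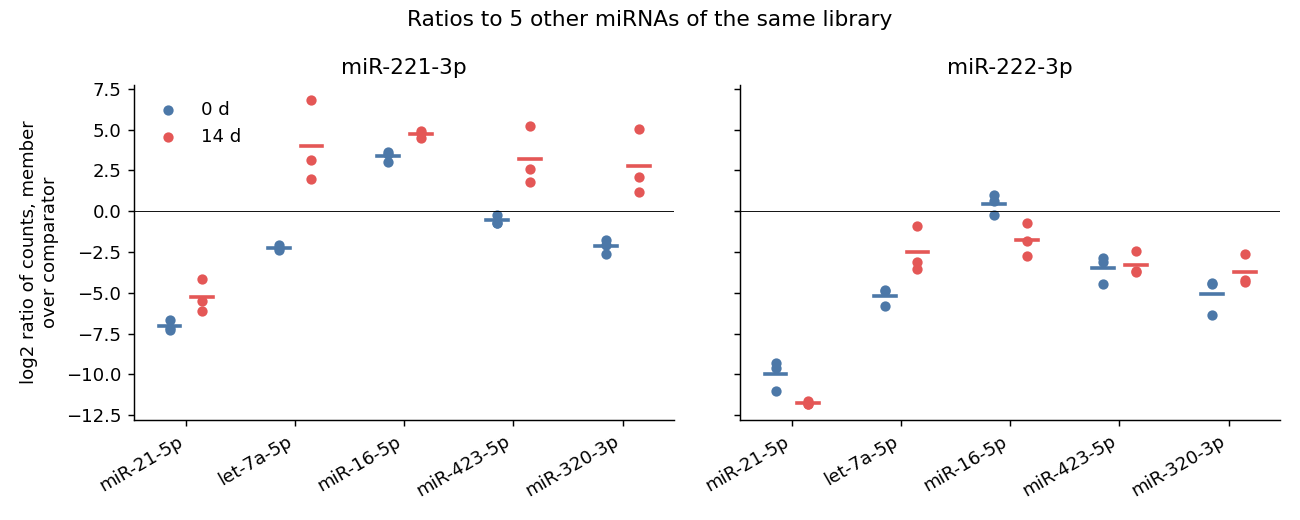
log2 ratio of miR-221-3p (left) and miR-222-3p (right) counts to 5 other miRNAs of the same library, with 1 point per library (0 d blue, 14 d red) and bars at the group means. The 14 d points of miR-221-3p lie above the 0 d points for each partner (differences of 1.35 to 6.23), and those of miR-222-3p lie above, below or among them (-2.23 to 2.66).

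The separate behaviour of the pair was set beside other neighbouring precursors, a comparison chosen after these values had been seen. Among 31 pairs of tested miRNAs whose RefSeq hairpins lie within 10000 bases on the same strand, the difference of log2 fold changes between the miRNAs of a pair had a median of 1.99. The difference between miR-221-3p and miR-222-3p, 4.18, was the 4th largest. In the 3 pairs with larger differences 1 miRNA had no count in at least 1 library. Of the 9 pairs with at least 10 counts of each miRNA in every library, this difference was the largest, followed by miR-27a-3p and miR-23a-3p of 1 cluster at 3.42. The median of these 9 was 1.67. miR-222-3p only just met the cut, with 10 counts in 14 d replicate 3, so a higher cut would have removed this pair. Some pairs share a miRNA, and no test was made of this order.

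The miRNAs whose level moved most like miR-221-3p were found by the SD of their within-library log2 ratio to it over the 6 libraries, a measure that is free of scaling and is given here as a description. Of 76 candidates with a count in every library and a mean of at least 50 TMM-scaled CPM, miR-30a-5p was closest, with an SD of 0.311 against a median of 2.27. miR-30a-5p belongs to a family that represses the osteoblast factor Runx2. It had 79, 54 and 47 counts at 0 d and 111, 292 and 112 at 14 d, so that its mean log2 ratio to miR-221-3p was -2.76 at 0 d and -2.78 at 14 d. Next were miR-24-3p, a repressor of the cell-cycle inhibitor p16, with an SD of 0.423 and miR-152-3p with 0.639. miR-27b-3p, an inhibitor of fat cell formation, had an SD of 0.649, and miR-20a-5p, of the growth-linked miR-17~92 cluster, had 0.709. As with miR-221-3p, 14 d replicate 2 held the highest share of each of these 5, which follows largely from how they were chosen. miR-222-3p, with an SD of 2.13, was the 36th of the 76.

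The same measure, applied to miR-222-3p after its values had been seen, had a median of 1.25 over the candidates. The 5 nearest were a predicted miRNA with an SD of 0.560, let-7f-5p with 0.613, miR-100-5p with 0.615, miR-196a-5p with 0.643 and miR-361-3p with 0.669. None of these 5 was called between 14 d and 0 d in the edgeR fit, where 54.6% of all tested sequences were. This follows largely from their choice, since they were picked for moving with miR-222-3p, which was not called either. miR-100-5p was called lower with total counts and in 6 other alternatives, and miR-361-3p with total counts (-1.66). miR-221-3p was the 67th of the 76 for miR-222-3p.

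miRNAs known to repress inhibitors of cyclin-dependent kinases, the best-known role of miR-221 and miR-222, formed a list of 14, of which 10 were tested. With miR-221-3p included, 4 rose and 1 fell, where 26.1% of all tested sequences were called higher and 28.6% lower, and the median log2 fold change of the 10 was 2.52 beside 0.26 over all tested sequences. The others that rose were miR-24-3p (3.43 ± 0.73, edgeR adjusted p = 0.0067), miR-152-3p of the p27-directed miR-148/152 family (2.93 ± 0.69, adjusted p = 0.0102), and miR-20a-5p, which represses p21 (2.60 ± 0.61, adjusted p = 0.0102; 1.72 without 14 d replicate 2). miR-25-3p, a repressor of p57, fell by 2.21 ± 0.36 (adjusted p = 0.00289). For the p21 repressors miR-17-5p and miR-93-5p the values were 2.82 and 2.44 and did not pass, each with 0 counts in 0 d replicate 3. miR-17-5p was called higher without 0 d replicate 2 (5.0). The counts of 4 higher and 1 lower were the same with total counts, and no member was called in the authors' normalized values without a filter. Leaving out a library gave 4 or 5 higher. The filter removed miR-106b-5p (33 counts at 0 d, 11 at 14 d), miR-181a-5p (22 and 0) and miR-92b-3p (17 and 0). All had fewer raw counts at 14 d, but the 14 d libraries were also smaller, and these totals are not scaled for that. With TMM and no filter, 13 were tested, with 4 higher and 1 lower. The median of these 13 was 1.88, beside -2.1 over all 417 sequences. The 417 take in the low sequences that the filter removed, and fitted values of sequences at 0 in a group depend on the prior count.

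Of 21 miRNAs known from blood vessel endothelium and smooth muscle, where miR-221 and miR-222 were widely studied, 12 were tested, and 8 rose and 1 fell, beside 26.1% higher and 28.6% lower over all tested sequences (median log2 fold change 2.60 beside 0.26). With total counts 4 rose and 1 fell, since miR-23a-3p, miR-145-5p, miR-143-3p and miR-21-5p no longer passed. With the authors' normalized values 5 rose and 1 fell (2 and 1 without a filter). Members that the filter removed all had fewer raw counts at 14 d, in totals that are not scaled for the smaller 14 d libraries. They were miR-155-5p (46 counts at 0 d, 0 at 14 d), miR-210-3p (37 and 2), miR-92a-3p (29 and 0), miR-126a-5p (17 and 2) and miR-31a-5p (5 and 0). With TMM and no filter, 17 were tested, with 7 higher and 0 lower. Their median was then 1.48, beside -2.1 over all 417 sequences, a background that takes in the low sequences removed by the filter. With TMM the risen ones besides miR-221-3p and miR-24-3p were miR-27a-3p (5.42, edgeR adjusted p = 0.00628), miR-27b-3p (4.78, adjusted p = 0.00355), the smooth muscle pair miR-143-3p (2.16, adjusted p = 0.00759) and miR-145-5p (4.32, adjusted p = 0.0433), miR-23a-3p (2.0, adjusted p = 0.0444) and miR-21-5p (1.73, adjusted p = 0.0142). The endothelial miR-126a-3p fell by 1.76 (adjusted p = 0.0142), a call lost without 14 d replicate 1 (-1.57) or 14 d replicate 3 (-1.82). The calls of miR-145-5p and miR-23a-3p were each lost when any of 5 of the 6 libraries was left out. miR-145-5p was counted at 0 d in replicate 2 alone, and without that library its fitted value was 9.996. Without 14 d replicate 2 the values of miR-27a-3p and miR-27b-3p were 3.66 and 3.60. miR-132-3p (3.05) and miR-10a-5p (1.41) were not called, although miR-132-3p was without 0 d replicate 1 (3.73) or 0 d replicate 3 (2.47).

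The cluster lies on the X chromosome, and 22 listed miRNAs have all their RefSeq copies there. Of the 11 tested, 2 rose and 2 fell, beside 26.1% higher and 28.6% lower over all tested sequences. A list of 11 is too small to separate these counts from those shares. The median log2 fold change was 0.57 beside 0.26 over all. Under total counts 1 was higher and 4 lower, with a median of -0.33, beside 18 higher, 46 lower and a median of -0.53 over all 119. With TMM and no filter, 22 were tested, with 1 higher and 2 lower. With TMM and the filter, the riser besides miR-221-3p was miR-3559-3p (2.45, edgeR adjusted p = 0.024). It was not called without 14 d replicate 2, at 1.57, or 0 d replicate 3, at 2.26. Those that fell were miR-224-5p (fell by 2.27, adjusted p = 0.00521) and the let-7 relative miR-98-5p (fell by 2.87, adjusted p = 0.00647). miR-361-3p (-0.81), miR-450a-5p (-1.03) and miR-672-5p (1.11) did not pass.

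**Figure D5:**
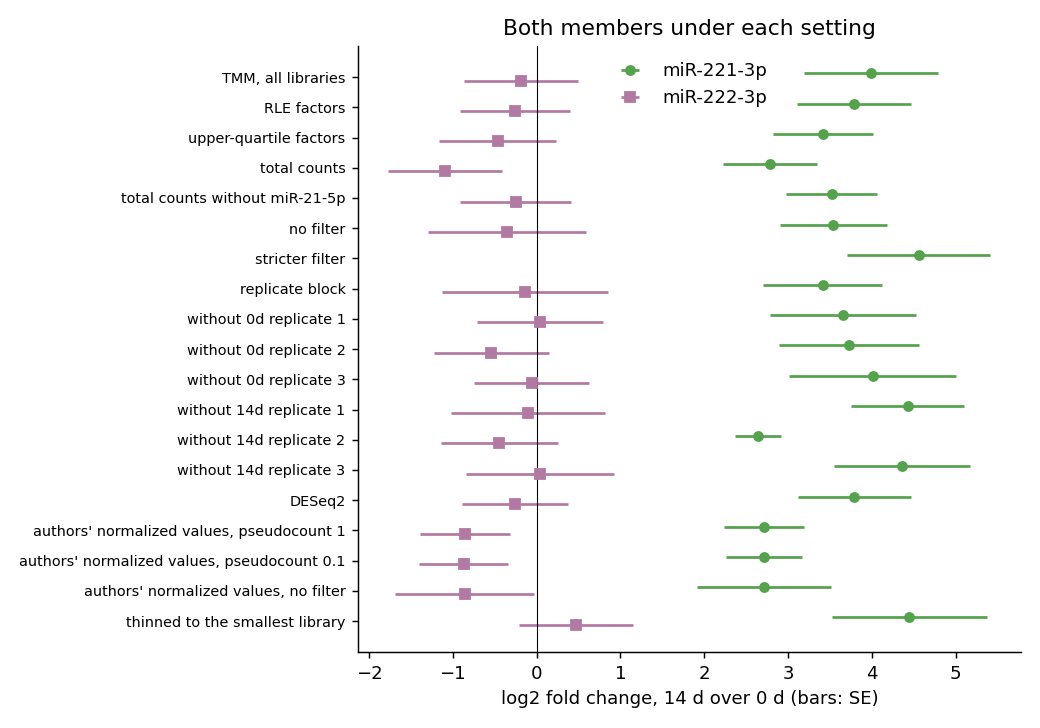
log2 fold change (14 d over 0 d, bars show SE) of miR-221-3p (green circles) and miR-222-3p (purple squares) with TMM and all libraries and under each alternative setting; miR-222-3p has no value under the stricter filter. miR-221-3p ranges from 2.64 to 4.56 over the alternatives and miR-222-3p from -1.09 to 0.47.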

How the data were processed

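A deposited table gives raw tag counts for each mature miRNA, per the file headers, and another gives a normalized score (normalized tag counts), rounded by the authors. In each library 95.5% to 100% of its values equalled the raw count times 1 factor (1.29 to 4.40), within 1 count plus 0.5%. Tools named in the submitters' processing notes are Novoalign 3.02.12 and cutadapt 1.9.3, with build rn6 and no roles; how tags were counted is not stated there. The 483 lines were merged to 417 mature sequences, and blanks were taken as 0.

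Groups were compared with edgeR 4.0.16 (R 4.3.3; quasi-likelihood F test, 2-sided, TMM, group as the only term, minimum count 10 and total 15) over 119 sequences, adjusted by Benjamini-Hochberg and called below 0.05. The script was run on simulated data as a check of the code only, which does not measure error rates in these libraries. An SE is the log2 fold change divided by the square root of F. Shares and ratios were compared by exact 2-sided permutation. Wilson and Clopper-Pearson intervals cover counting error only. Alternatives were other scaling factors and filters, DESeq2 1.42.0, limma 3.58.1 on log2 of the authors' normalized score, a replicate block, each library left out and, chosen after seeing the data, thinned libraries.

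Members and lists were chosen with earlier results of these data known. Named miRNAs are the members, 5 fixed partners, the 5 closest to miR-221-3p, and, in each list, called members and up to 3 abundant uncalled ones.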

Additional observations from a re-analysis of the deposited data

How the results depend on the processing

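miR-221-3p was called as higher in 17 of 18 alternatives (2.64 to 4.56) and not in the authors' normalized values with limma, a pseudocount of 1 and no filter (2.71, adjusted p = 0.0683), where 417 rather than 119 sequences entered. Leaving out each library gave 2.64 to 4.43. For miR-222-3p the range when a library was left out was -0.54 to 0.042 (0.037 without 14 d replicate 3), its value was 0.47 after thinning (chosen after seeing the data), and the stricter filter (minimum count 30) did not test it; the cause of the sign changes was not tested. The count of called sequences was 45 to 81 over the alternatives against 65, and 50 to 69 when a library was left out. The difference in summed share was 1.60 percentage points, 0.866 to 2.06 when a library was left out and 4.58 with miR-21-5p removed from the total. The log2 ratio of miR-222-3p to miR-221-3p differed by -3.58, and by -4.07 to -2.99 when a library was left out.

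Whether replicate numbers pair the samples is not stated in the labels and cannot be told from these values. Same-numbered samples had correlations of deviations from the group means of -0.011, 0.0062 and 0.109. Those of differently numbered samples ran from -0.096 to 0.067. With the replicate block, miR-221-3p was at 3.41, miR-222-3p at -0.14 and 62 sequences were called, and the sign-flip p of the summed share and of the ratio was 0.25, the smallest possible. The 10 to 13 counts of miR-222-3p in the 14 d libraries limit what can be said of it.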
